A study of Mus musculus with 10 samples.

Results

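Heterotrimeric G proteins and their RGS regulators were examined in sorted cortical projection neurons of mouse pups with and without the kinase gene Cdk7. The genes were found by a rule on their names, set with earlier results of these data known. It took Gα, Gβ and Gγ subunit genes and genes of the RGS series, leaving out the pericyte gene Rgs5. The rule found 55 of the 55573 genes in the count table. They are 16 Gα, 5 Gβ and 10 Gγ genes, 22 genes of the RGS series and 2 processed pseudogenes. RNA was selected for polyA tails and sequenced from YFP-positive cortical cells of postnatal day 3. The 5 Cdk7_KO libraries came from NexCre/+ pups with Cdk7lox/lox alleles and the R26EYFP/+ reporter, and the 5 Ctrl libraries from NexCre/+ pups with Cdk7+/+ and the same reporter. Each library is a preparation from a different mouse. In both groups Cre is driven from the Nex (Neurod6) locus, which is active as cortical glutamatergic neurons begin to differentiate, so deletion and reporter both depend on that driver.

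G proteins carry signals from seven-transmembrane receptors. An activated receptor makes the Gα subunit exchange GDP for GTP, after which Gα and the Gβγ pair act on separate effectors such as adenylyl cyclase, phospholipase C-β and GIRK potassium channels. RGS proteins speed up GTP hydrolysis on Gα and so end the signal. In cortical neurons this cycle serves receptors for serotonin, acetylcholine, GABA and adenosine, among others.

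Library totals lay between 23497621 and 31233466 counts. Cdk7, the deleted gene, was at 10.1 to 20.3 CPM in Ctrl and at 3.63 to 7.07 CPM in Cdk7_KO, with no overlap (two-sided exact permutation p = 0.0079, the smallest that 5 libraries against 5 allow). CPM is the count scaled to a common library total. The replicate numbers 1 to 3 and 4 to 6 separate libraries with Ddx3y and without Xist (2 Ctrl, 3 Cdk7_KO) from those with Xist and without Ddx3y (3 Ctrl, 2 Cdk7_KO), so that an effect of sex and one of the number set cannot be told apart. Markers of other cells had lower values in Cdk7_KO: all 14 radial glia and astrocyte genes, all 14 endothelial and pericyte genes and all 12 microglial genes had negative log2 fold changes. The summed levels of these lists were 1003.6 to 1819.0, 218.4 to 1423.2 and 167.2 to 498.3 CPM in Ctrl, and 246.3 to 1054.0, 56.8 to 315.7 and 87.1 to 263.1 CPM in Cdk7_KO. All tested genes of the oligodendrocyte lineage (8), interneuron (12), erythroid (5) and dividing cell (8) lists were also negative. None of the genes on these lists was at 0 in all libraries. Of the 10 projection neuron genes 8 were positive, with a median log2 fold change of 0.27, and they summed to 2177.4 to 3417.0 CPM in Ctrl and 2555.4 to 3300.3 CPM in Cdk7_KO. In RNA from pooled cells, fewer cells of a type and less RNA per cell cannot be told apart.

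**Figure D1:**
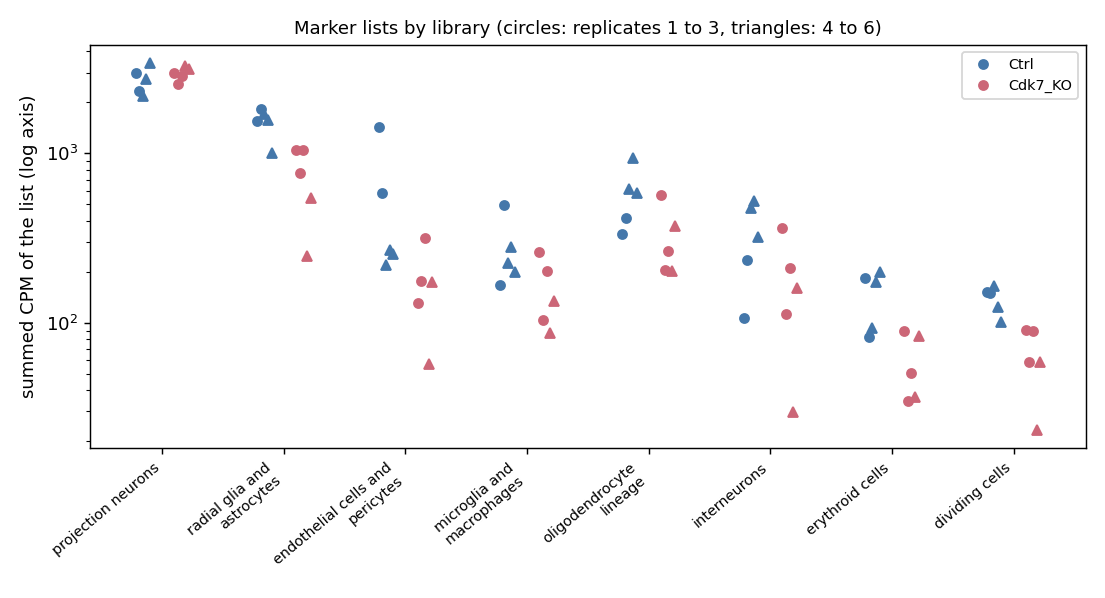
Summed CPM (log axis) of the marker lists in each library, with Ctrl in blue and Cdk7_KO in red. Radial glia and astrocyte genes reach at most 1054.0 CPM in Cdk7_KO and 1819.0 CPM in Ctrl, while the projection neuron list overlaps over most of its range.

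The Gγ genes show how similar the members are in sequence where the membrane anchor is made. Each Gγ chain ends in a box of residues that starts with a cysteine, to which a lipid is attached: a geranylgeranyl group in most, a farnesyl group in Gng11. The last 30 coding bases before the stop codon of the 8 Gγ genes measured above the count filter are given 5′ to 3′ from GENCODE M21 transcripts, with the 4 codons of that box in capitals.
Gng2: cgggagaagaagttcttcTGCGCCATCCTT
Gng3: cgggagaagaagttcttcTGTGCGCTCCTC
Gng4: cgggagaagaagttcttcTGCACCATCCTC
Gng7: ttcaaagacaaaaagcctTGCATAATTCTC
Gng12: ttcaaggataagaagaccTGCATCATCTTA
Gng5: ttcagaccccagaaagtcTGCTCCTTTTTG
Gng10: ttccgggagcccaggtccTGTGCTCTACTT
Gng11: ttcaaagaaaagggcagcTGTGTCATTTCA
The 18 bases before the box are identical in Gng2, Gng3 and Gng4. Those of Gng5, Gng7, Gng10, Gng11 and Gng12 differ from that stretch and from each other.

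Of the 55 genes 41 passed the filter on low counts and were tested. The 14 others had at most 31 counts in any library, and 2 of them, the taste-cell Gα gene Gnat3 and Rgs21, had none. The others were the photoreceptor transducin genes Gnat1 and Gnat2, Gna14, Gnb3, Gng8, Gng13, Rgs13, Rgs14, Rgs18, Rgs22 and the pseudogenes Gng2-ps1 and Gng5-ps. In edgeR's quasi-likelihood test 0 of the 41 genes were called at an adjusted p under 0.05, against a background of 0% of 15578 genes. The smallest adjusted p among them was 0.161. Cdk7, the deleted gene, was not called either, at a log2 fold change of -1.54 (SE 0.22, edgeR adjusted p = 0.161). The 0 calls therefore do not show that the members were unchanged. At an unadjusted p under 0.05 there were 10 of the 41, of which 3 were higher (background 4.9%) and 7 lower (background 10.5%). limma's voom called 0. DESeq2 called 3 of its 43 members with an adjusted p (background 3.55%): Rgs20 and Rgs16 lower and Gng10 higher. In 3 of the 41 the groups did not overlap in CPM (background 3.02%), and these were the same 3 genes: 1 higher (background 0.61%) and 2 lower (background 2.41%). With the set of replicate numbers (1 to 3 or 4 to 6) as a further factor, edgeR called 3 lower, Rgs20, Gng12 and Gnai2 (background 4.7%, or 4.4% lower). DESeq2 with that factor called 7, of which 6 were lower (background 8.14%, or 7.4% lower): the 5 genes already named and Gng11 and Gna15. Positive log2 fold changes were found in 22 of the 41 (background 52.5%). The interaction of genotype and number set had an unadjusted p under 0.05 in 4 of them (background 7.34%): Rgs16, Rgs8, Gng3 and Gnb2.

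**Figure D2:**
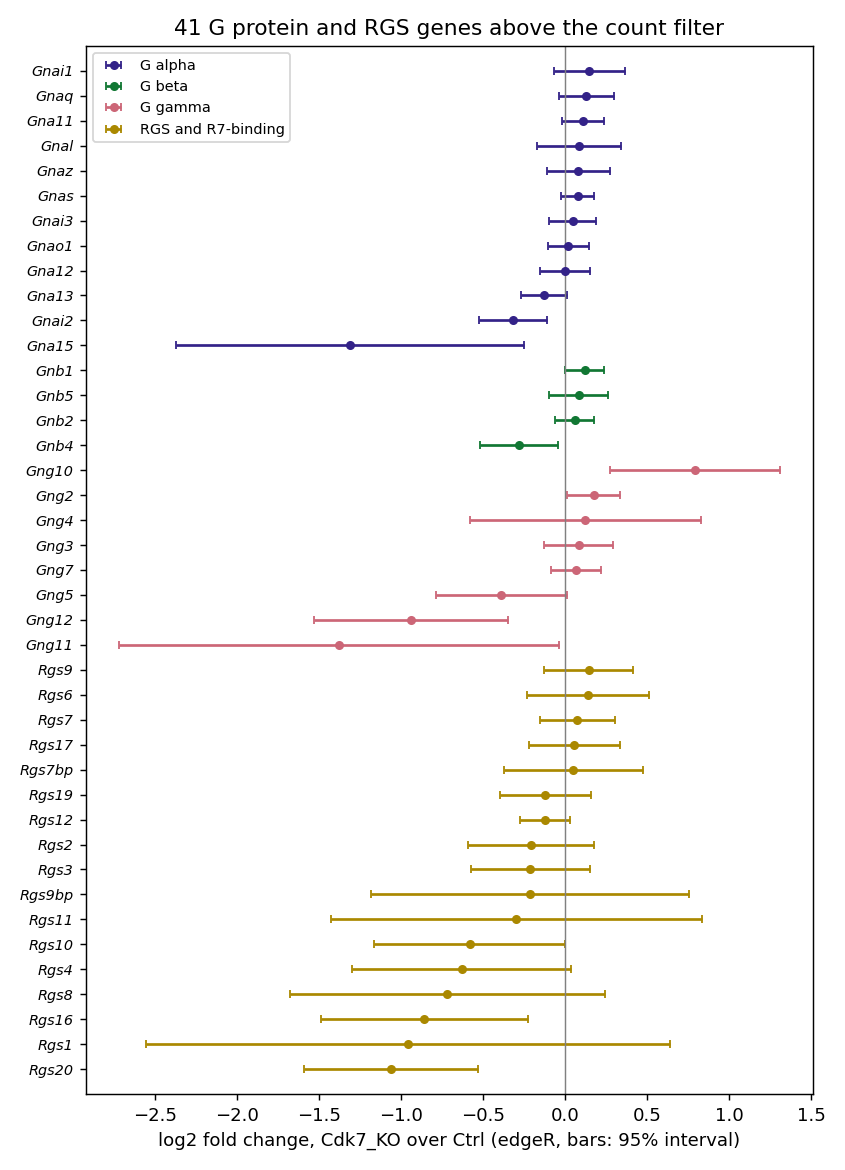
Log2 fold changes (Cdk7_KO over Ctrl) of the 41 genes tested, with 95% intervals from edgeR, grouped by class. Most Gα and Gβ genes lie within a narrow band around 0, and the values farthest from 0 belong to Gng11, Gna15, Rgs20, Rgs1, Gng12 and Rgs16 on the lower side and Gng10 on the higher side.

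The genes are described in the order of the signal, from Gα to RGS. Over the 12 Gα genes tested the median log2 fold change was 0.06, with 9 positive and 3 negative, beside a median of 0.01 over all genes tested. Per kilobase of exon, the most abundant Gα RNAs in Ctrl were Gnas (95.2 CPM per kb), Gnai2 (86.6 CPM per kb) and Gnaq (81.7 CPM per kb), followed by Gnao1 (61.5 CPM per kb). This order depends on the length used, which is that of all annotated exons (11053 bases for Gnao1, 3779 for Gnai2). In CPM Gnao1 (679.3) was above Gnai2 (327.2) in Ctrl. Gnas encodes the adenylyl cyclase activator Gαs and, from other promoters of the same imprinted locus, further proteins that the gene count does not separate. It was at 1064.7 ± 32.0 CPM in Ctrl and at 1084.7 ± 29.8 CPM in Cdk7_KO (SD, n = 5), with a log2 fold change of 0.08 (95% interval -0.02 to 0.18). Gnaq, which encodes the activator of phospholipase C-β, had a log2 fold change of 0.13 (95% interval -0.04 to 0.30). Gnao1, the main Gα of neurons, had one of 0.02 (SE 0.06). These intervals bound a change of these abundant subunits, relative to the other RNA in each library, to a small size. They do not show that there was none, and the amount of RNA per cell was not measured.

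Gnai2, which encodes an inhibitor of adenylyl cyclase found in many cell types and abundant in immune and vascular cells, was lower in the mean. The gene lies on the minus strand of chromosome 9 from 107614125 to 107635367 in GRCm38. Its levels in Ctrl replicates 1, 3, 4, 5 and 6 were 381.8, 350.6, 302.0, 315.6 and 285.8 CPM. In Cdk7_KO replicates 1 to 5 they were 297.5, 249.2, 269.2, 212.0 and 242.5 CPM. Only the highest Cdk7_KO library reached into the Ctrl range, above the lowest Ctrl library. Its log2 fold change was -0.32 (SE 0.09, edgeR adjusted p = 0.179, DESeq2 adjusted p = 0.0746). With the number set as a factor the edgeR adjusted p was 0.0123, and it lay between 0.0120 and 0.0390 when each library was left out in turn. Within replicates 1 to 3 the log2 fold change was -0.41 and within 4 to 6 it was -0.31. The closely related Gnai1 and Gnai3 had positive values of 0.15 (SE 0.10) and 0.05 (SE 0.07), and whether they differ from Gnai2 in response was not tested. Gna15, a Gq-class subunit known from blood cells, was scarce, at 0.67 to 2.56 CPM in Ctrl and at 0.16 to 0.74 CPM in Cdk7_KO. Its log2 fold change of -1.31 (SE 0.49) rests on 4 to 80 counts per library and was -0.90 without Ctrl replicate 3. That library also had the highest microglial marker sum, 498.3 CPM. The highest Gnai2 level was in Ctrl replicate 1, which had the highest vascular sum (1423.2 CPM) and the lowest microglial sum among the Ctrl libraries (167.2 CPM), and without it the log2 fold change of Gnai2 was -0.25. Across the Cdk7_KO libraries Gnai2 had the same order as the radial glia and astrocyte sum, from replicate 1 (1054.0 CPM) to replicate 4 (246.3 CPM). Ctrl replicate 6 was the lowest Ctrl library in both (sum 1003.6 CPM), but the highest Ctrl sum was in replicate 3 (1819.0 CPM). The part of glial, microglial and vascular cells in the values of Gnai2 and Gna15 was otherwise not tested.

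The Gβ genes were led by Gnb1 and Gnb2, the propeller subunits of most neuronal G proteins. In Ctrl they stood at 274.0 and 154.0 CPM per kb, against 15.4 CPM per kb for Gnb5 and 2.97 CPM per kb for Gnb4. Gnb1 was at 1169.5 ± 52.3 CPM in Ctrl and at 1227.5 ± 31.3 CPM in Cdk7_KO (SD, n = 5), which gave a log2 fold change of 0.12 (SE 0.05, edgeR adjusted p = 0.314). Gnb4, a scarcer Gβ gene, was lower in the mean. Its Ctrl libraries were at 39.5, 30.4, 37.5, 40.8 and 40.3 CPM in the order given above, and its Cdk7_KO libraries at 35.8, 29.8, 32.1, 24.9 and 27.5 CPM. Ctrl replicate 3 lay among the Cdk7_KO values, and the other Ctrl libraries lay above all of them. The value of Gnb4 was -0.28 (SE 0.11, edgeR adjusted p = 0.253), and it was -0.09 within replicates 1 to 3 and -0.50 within 4 to 6. Gnb5, the partner of the R7 group of RGS proteins, was at 47.9 ± 5.79 CPM in Ctrl and at 49.0 ± 4.22 CPM in Cdk7_KO (SD, n = 5).

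Gng2 and Gng3, the chief Gγ genes of forebrain neurons, were at 186.3 and 179.7 CPM per kb in Ctrl, close beside each other, and Gng7 followed at 18.7 CPM per kb. Gng2 was at 851.2, 889.4, 714.7, 781.5 and 851.8 CPM in the Ctrl libraries and at 829.8, 926.5, 920.6, 928.2 and 853.0 CPM in the Cdk7_KO libraries. Cdk7_KO replicates 1 and 5 lay within the Ctrl range and the others above it. The log2 fold change was 0.18 for Gng2 (SE 0.07, edgeR adjusted p = 0.282), 0.09 for Gng3 (SE 0.10) and 0.07 for Gng7 (SE 0.07). Gng3 shares 24.2% of its exon bases with Bscl2 on the opposite strand, and the strand setting of the counting is not stated. The 5 others stood between 1.37 and 9.56 CPM per kb in Ctrl. The lowest, Gng10, was divided by all of its 1314 exon bases, and its level per length would be higher if reads were counted only in the 368 bases that it shares with no other gene model.

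**Figure D3:**
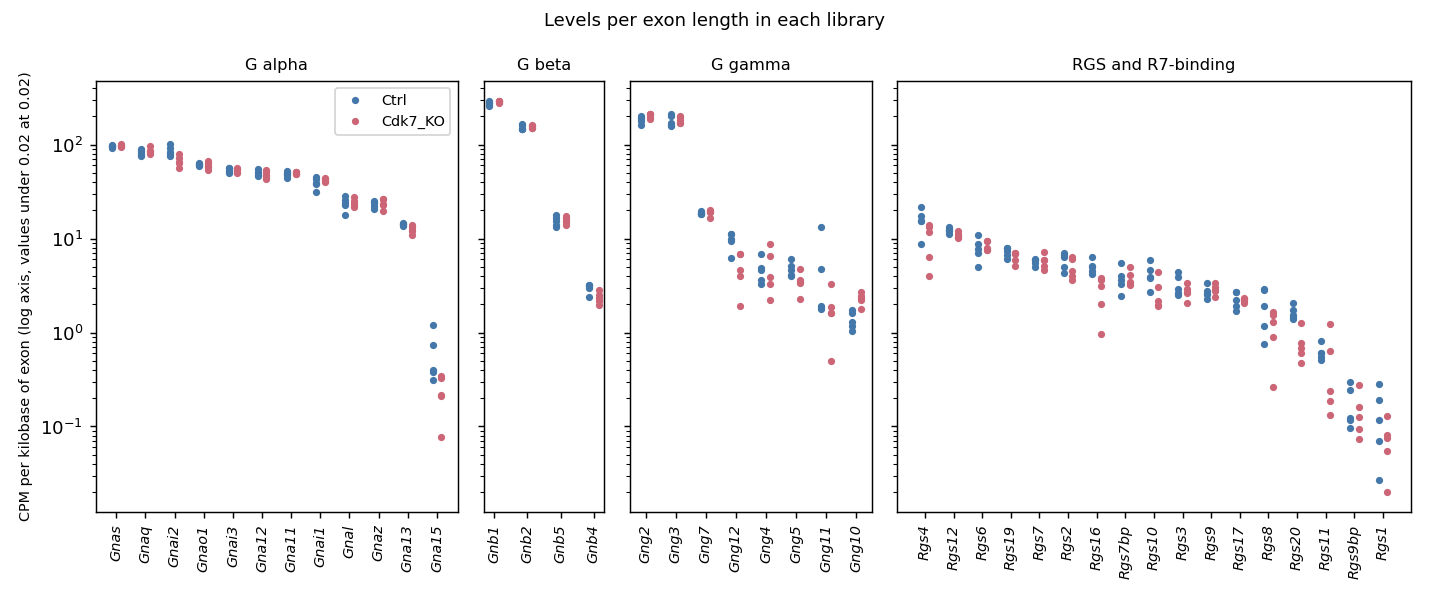
Levels of the tested genes in each library as CPM per kilobase of exon (log axis), ordered by level within each class. Gnb1, Gng2 and Gng3 stand highest, at 274.0, 186.3 and 179.7 CPM per kb in the mean of Ctrl, and the RGS genes all lie below the leading subunit genes.

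Gng12, a Gγ gene expressed in many tissues, had a mean of 45.2 ± 9.62 CPM in Ctrl and of 22.8 ± 9.75 CPM in Cdk7_KO (SD, n = 5). The gene lies on the plus strand of chromosome 6 from 66896397 to 67021350. Its Ctrl libraries (replicates 1, 3, 4, 5 and 6) were at 44.3, 52.3, 52.9, 47.2 and 29.2 CPM. Its Cdk7_KO libraries (replicates 1 to 5) were at 32.1, 21.9, 32.3, 9.13 and 18.7 CPM. Ctrl replicate 6 lay below Cdk7_KO replicates 1 and 3, and the other Ctrl libraries lay above all Cdk7_KO libraries. Its log2 fold change was -0.94 (SE 0.27, edgeR adjusted p = 0.174, DESeq2 adjusted p = 0.0777). With the number set as a factor the edgeR adjusted p was 0.0221, and 0.0576 and 0.0541 without Cdk7_KO replicate 2 and Ctrl replicate 5. The summed radial glia and astrocyte markers had the same lowest library in each group, Ctrl replicate 6 and Cdk7_KO replicate 4, and their part in the value of Gng12 was not tested.

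Gng10 was the tested member with the largest positive value. It was at 2.26, 1.38, 1.53, 1.70 and 2.11 CPM in Ctrl replicates 1, 3, 4, 5 and 6, and at 2.32, 2.89, 3.20, 3.53 and 3.04 CPM in Cdk7_KO replicates 1 to 5. Every Cdk7_KO library was above every Ctrl library, by a small margin at Cdk7_KO replicate 1. The log2 fold change was 0.79 (95% interval 0.27 to 1.31, edgeR adjusted p = 0.179) on 38 to 84 counts per library. DESeq2 gave an adjusted p of 0.0493, which passed without Cdk7_KO replicate 1 or Ctrl replicate 6 (0.0322 and 0.0423) and not without any of the 8 others. Those values were 0.103, 0.0901, 0.176 and 0.131 without Cdk7_KO replicates 2 to 5, and 0.0576, 0.148, 0.121 and 0.126 without Ctrl replicates 1, 3, 4 and 5.

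Gng10 shares most of its exon bases with another gene model. Gng10 (ENSMUSG00000038607) lies on the plus strand of chromosome 4 from 59035088 to 59041903 in GRCm38. In GENCODE M21, 946 of its 1314 exon bases also belong to Gm20503, a read-through model that joins the upstream gene Dnajc25 to the later Gng10 exons. Gm20503 was listed at 0 counts in all 10 libraries. The 368 bases that are Gng10's alone are nearly all in its alternative first exons (231 and 122 bases). With 0 counts for Gm20503, no read in the shared bases was counted for both models. Whether such reads were dropped or given to Gng10 alone is not stated in the sources used here. Dnajc25 was at 8.85 ± 0.74 CPM in Ctrl and at 8.69 ± 1.85 CPM in Cdk7_KO (SD, n = 5), which gave a log2 fold change of 0.02 (SE 0.16).

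Gng11 and Gng5 were lower in the mean. Gng11, abundant in endothelial cells, was at 12.2 CPM in Ctrl replicate 1, at 1.63 to 4.35 CPM in the other Ctrl libraries and at 0.46 to 3.00 CPM in Cdk7_KO. The value of -1.37 on the log2 scale (SE 0.62, edgeR adjusted p = 0.314) became -0.51 without Ctrl replicate 1. That library also had the highest vascular marker sum, 1423.2 CPM, where the next Ctrl library had 582.4 CPM, and its part in the value was tested only by leaving it out. Gng5, a Gγ gene of dividing and non-neuronal cells, was at 13.1 ± 2.33 CPM in Ctrl and at 9.72 ± 2.41 CPM in Cdk7_KO (SD, n = 5), which gave a log2 fold change of -0.39 (SE 0.18, edgeR adjusted p = 0.341). The 8 markers of dividing cells summed to 100.7 to 165.3 CPM in Ctrl and 23.3 to 90.2 CPM in Cdk7_KO, and their part in the value of Gng5 was not tested.

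**Figure D4:**
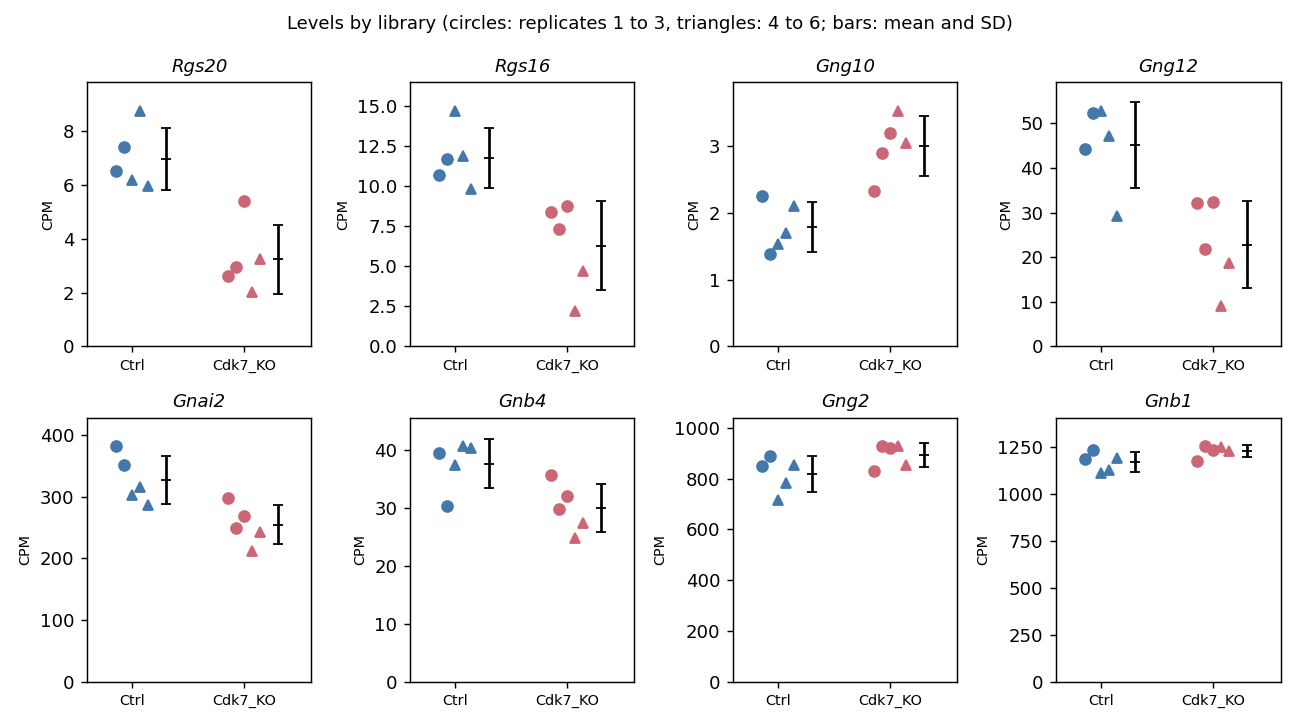
CPM of 8 members in each library, with the mean and SD of each group (n = 5) beside the points; circles are replicates 1 to 3 and triangles 4 to 6. The groups do not overlap for Rgs20, Rgs16 and Gng10, and overlap for Gng12, Gnai2, Gnb4, Gng2 and Gnb1.

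The genes of the RGS series, with the R7-binding genes Rgs7bp and Rgs9bp among them, had a median log2 fold change of -0.21 over the 17 tested. The median over all genes was 0.01, and 5 of the 17 were positive and 12 negative. The R4 group holds small RGS proteins that act on Gi and Gq. Its 6 tested genes among those chosen were all negative (median -0.67, from -0.95 to -0.21), 1 of them at an unadjusted p under 0.05. Rgs5, an R4 gene that the name rule left out, was at -1.60 (SE 0.48, DESeq2 adjusted p = 0.0840), and its groups overlapped. It is on the endothelial and pericyte list used here. It was at 315.2 CPM in Ctrl replicate 1, which had the highest vascular sum, and at 58.0 to 165.6 CPM in the other Ctrl libraries. Its value lay between -1.87 and -1.02 when each library was left out, and the part of vascular cells in it was not tested. The shared sign of the 6 R4 genes did not hold within replicates 1 to 3. There Rgs8 was at 0.52, against -1.63 within 4 to 6 (edgeR interaction, unadjusted p = 0.0104, adjusted p = 0.665). Rgs8 was at 7.19, 11.2, 27.3, 27.9 and 18.5 CPM in Ctrl replicates 1, 3, 4, 5 and 6, where the interneuron markers summed to 106.1, 235.8, 474.1, 521.6 and 322.5 CPM. Both were lowest in replicate 1 and highest in replicate 5, and Cdk7_KO replicate 4 was lowest of all libraries in both. The part of these cells in the value of Rgs8 was not tested. Of the 4 R7 genes, whose proteins pair with Gβ5, 3 were positive (median 0.11, from -0.30 to 0.15). Whether the 2 groups differ was not tested. Among the chosen RGS genes, the highest levels in Ctrl were those of Rgs4 (15.7 CPM per kb), Rgs12 (12.3 CPM per kb) and Rgs6 (7.84 CPM per kb). Rgs5, left out by the name rule, had a higher Ctrl mean of 29.8 CPM per kb, with 69.3 and 36.4 in replicates 1 and 3. In Ctrl replicates 4, 5 and 6 it was at 12.8, 15.7 and 14.9 CPM per kb. Rgs4 was above it in replicates 4 and 5, at 21.8 and 17.3 CPM per kb.

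Rgs20, which encodes the Gαz-directed protein RGSZ1, was lower in every Cdk7_KO library than in any Ctrl library. It was at 6.51, 7.43, 6.17, 8.77 and 5.96 CPM in Ctrl replicates 1, 3, 4, 5 and 6, and at 2.60, 2.93, 5.39, 2.02 and 3.25 CPM in Cdk7_KO replicates 1 to 5. The lowest Ctrl library (5.96 CPM) and the highest Cdk7_KO library (5.39 CPM, replicate 3) lay close together, and the other Cdk7_KO libraries stood well apart. Its log2 fold change was -1.06 (95% interval -1.59 to -0.53, edgeR adjusted p = 0.161), and it lay between -1.31 and -0.95 when each library was left out. DESeq2 called it lower (adjusted p = 0.00443) and did so without each of the 10 libraries, with adjusted p-values up to 0.0250. With the number set as a factor the edgeR adjusted p was 0.0293, and it was 0.0717, 0.0859, 0.0653 and 0.0691 without Cdk7_KO replicates 2 and 4 and Ctrl replicates 3 and 5. Within replicates 1 to 3 the log2 fold change was -0.93 and within 4 to 6 it was -1.31.

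Rgs20 (ENSMUSG00000002459) lies on the minus strand of chromosome 1 from 4909576 to 5070285 in GRCm38. It shares 127 exon bases (3.0% of its exons) with Atp6v1h on the opposite strand, which was far more abundant at 131.4 ± 8.83 CPM in Ctrl and at 138.6 ± 4.82 CPM in Cdk7_KO (SD, n = 5). Astrocytes are a known source of Rgs20 RNA. The radial glia and astrocyte sum overlapped between the groups. The highest such sums among the Cdk7_KO libraries were 1054.0 CPM in replicate 1, with Rgs20 at 2.60 CPM, and 1052.3 CPM in replicate 3, with Rgs20 at 5.39 CPM, and replicate 4 was lowest in both. Among the Ctrl libraries replicate 6 was lowest in both, with a sum of 1003.6 CPM and Rgs20 at 5.96 CPM. The highest Ctrl libraries differed, replicate 3 for the sum (1819.0 CPM) and replicate 5 for Rgs20 (8.77 CPM). The part of these cells in the value of Rgs20 was not tested. The other RZ genes had values near 0, at -0.12 (SE 0.13) for Rgs19 and 0.06 (SE 0.13) for Rgs17, and Gnaz, the preferred target of the group, was at 83.8 ± 6.59 CPM in Ctrl and at 85.6 ± 9.64 CPM in Cdk7_KO (SD, n = 5).

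Rgs16, a signal-induced R4 gene, had the other lower call of DESeq2. It lies on the plus strand of chromosome 1 from 153740349 to 153745468. Its Ctrl libraries were at 10.7, 11.7, 14.7, 11.9 and 9.81 CPM and its Cdk7_KO libraries at 8.42, 7.35, 8.79, 2.23 and 4.69 CPM, in the same order. The groups did not overlap, and Cdk7_KO replicates 4 and 5 were the lowest. The radial glia and astrocyte sums were lowest in the same libraries, at 246.3 and 547.0 CPM, and Ctrl replicate 6 was the lowest Ctrl library in both. Their part in the value of Rgs16 was not tested. The log2 fold change was -0.86 (SE 0.29, edgeR adjusted p = 0.198, DESeq2 adjusted p = 0.0493). Without Cdk7_KO replicates 2 and 5 and Ctrl replicates 1, 3, 4 and 5 the DESeq2 adjusted p was 0.0693, 0.160, 0.0934, 0.101, 0.140 and 0.108. Its value was -0.44 within replicates 1 to 3 and -1.72 within 4 to 6. The interaction had an unadjusted p of 0.00794 and an edgeR adjusted p of 0.665, so that the difference did not pass correction.

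Among the chosen RGS genes, Rgs4 had the highest level per length in Ctrl. In Cdk7_KO it was Rgs12, at 10.9 CPM per kb against 9.80 for Rgs4. Rgs4 was at 26.8 to 67.4 CPM in Ctrl (median 47.9) and at 12.2 to 42.8 CPM in Cdk7_KO (median 36.1). Its log2 fold change was -0.63 (SE 0.31, edgeR adjusted p = 0.355). Rgs10, known from microglia, was at 4.63 to 10.1 CPM in Ctrl and at 3.28 to 7.62 CPM in Cdk7_KO, a value of -0.58 (SE 0.27). Cdk7_KO replicates 1 and 3 (5.23 and 7.62 CPM) lay within the Ctrl range of Rgs10, and replicates 2, 4 and 5 lay below it. The part of microglial cells in the value of Rgs10 was not tested. Rgs12, a large scaffold that binds Gαi, had -0.12 (SE 0.07), and Rgs6 had 0.14 (SE 0.17). Rgs7bp, which encodes the membrane anchor of R7 proteins, was at 26.9 ± 8.06 CPM in Ctrl and at 26.8 ± 5.20 CPM in Cdk7_KO (SD, n = 5).

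**Figure D5:**
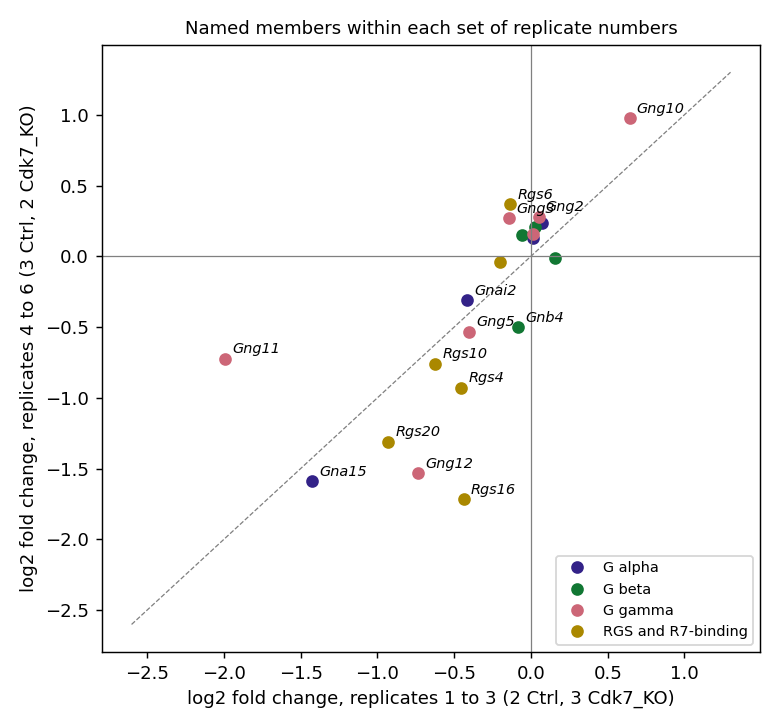
Log2 fold changes of the 21 named members within replicates 1 to 3 (x axis) and within 4 to 6 (y axis), coloured by class; the dashed line marks equal values. Gng10 is positive and Rgs20, Gng12, Gnai2 and Gna15 are negative in both sets, while Rgs16 is at -0.44 and -1.72.

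Summed over each class, the subunit RNAs differed between the groups by less than the spread of the Ctrl libraries. The 16 Gα genes summed to 3684.9 ± 125.6 CPM in Ctrl and to 3652.8 ± 69.0 CPM in Cdk7_KO, the 5 Gβ genes to 1779.3 ± 75.6 and 1834.0 ± 38.8 CPM, and the 10 Gγ genes to 1264.2 ± 106.9 and 1319.3 ± 73.6 CPM (SD, n = 5). The 22 genes of the RGS series summed to 416.2 to 469.7 CPM in Ctrl and to 327.9 to 448.6 CPM in Cdk7_KO. Cdk7_KO replicate 4 was lowest, and the groups overlapped at Cdk7_KO replicate 3 (448.6 CPM). Cdk7_KO replicate 4 also had the lowest sums of radial glia, vascular, microglial and interneuron markers.

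Upstream sequence is given for Gng10, Rgs16 and Gng12, which were called in at least 1 of these fits. Rgs20 and Gnai2, also called in at least 1 fit, had no entry among the RefSeq windows, where 39 of the 55 members had one. For Gng11 and Gna15, called in at least 1 fit too, no window was sought. Each line holds the 150 bases before the first annotated exon base (plus strand, GRCm38.p6, 5′ to 3′). Capitals mark motif matches on either strand, such as those to a GC box, which reads GGGCGG. The other motifs searched, also on both strands, were the CCAAT box, the TATA box, which reads TATAAA, and the cyclic AMP response element, which reads TGACGTCA.
Gng10 chr4:59034938-59035087: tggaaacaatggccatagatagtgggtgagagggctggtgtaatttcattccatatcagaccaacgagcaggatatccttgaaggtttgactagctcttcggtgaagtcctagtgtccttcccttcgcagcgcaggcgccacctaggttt
Rgs16 chr1:153740199-153740348: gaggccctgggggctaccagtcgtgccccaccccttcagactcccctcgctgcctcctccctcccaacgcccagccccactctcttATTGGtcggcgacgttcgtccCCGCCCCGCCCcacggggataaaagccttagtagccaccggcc
Gng12 chr6:66896247-66896396: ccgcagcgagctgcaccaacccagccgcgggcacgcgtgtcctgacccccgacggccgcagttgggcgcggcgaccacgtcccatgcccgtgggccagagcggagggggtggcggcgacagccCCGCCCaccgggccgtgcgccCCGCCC
The windows of Rgs16 and Gng12 hold 2 GC box matches each, which overlap by 1 base in Rgs16, and that of Rgs16 also 1 CCAAT match. The Gng10 window holds none of the 4 motifs. Whether motifs go with the direction of change was not tested. Of 32851 windows of the same length before RefSeq start sites, 28.6% hold the GC box letters. The letters of the second motif are in 24.5%, those of the TATA box in 7.57% and those of the cyclic AMP element in 1.36%.

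The genes on either side of the G protein in the pathway were read from lists chosen by role. Of 120 measured receptor, effector and regulator genes edgeR called 0 at an adjusted p under 0.05. At an unadjusted p under 0.05, 2 were higher and 17 lower (background 4.9% and 10.5%), and DESeq2 called 6, all lower (background 3.3%). Among 51 receptor genes the median log2 fold change was -0.09, and 3 were called lower by DESeq2. Htr2a, which encodes the Gq-coupled serotonin 2A receptor, was at 2.29 to 3.11 CPM in Ctrl and at 0.55 to 1.09 CPM in Cdk7_KO, with no overlap. Its log2 fold change was -1.51 (SE 0.27, edgeR adjusted p = 0.161, DESeq2 adjusted p = 0.000857), and DESeq2 called it without each of the 10 libraries. The others were Lpar1, a lysophosphatidic acid receptor gene also found in oligodendrocyte lineage cells (-1.66, SE 0.47), and Adgrg1, the adhesion receptor gene of cortical progenitors (-0.40, SE 0.11). DESeq2 did not call Lpar1 without 3 of the 10 libraries (adjusted p up to 0.0794) or Adgrg1 without 7 (up to 0.131).

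Of the 12 genes of the phospholipase C branch 8 were negative (median -0.25) and DESeq2 called 2 lower. Plcb3, a phospholipase C-β isoform, was at 23.4 ± 3.80 CPM in Ctrl and at 12.9 ± 4.25 CPM in Cdk7_KO (SD, n = 5), which gave a log2 fold change of -0.82 (SE 0.21). Itpr2, the inositol trisphosphate receptor gene prominent in astrocytes, was at 23.4 ± 6.10 and 11.4 ± 4.49 CPM (SD, n = 5) and at -0.997 (SE 0.26). Their DESeq2 adjusted p-values were 0.00909 and 0.00697, and both were called without each of the 10 libraries. The astrocyte markers described above had negative values too, and their part in these values was not tested. In the cyclic AMP branch DESeq2 called the phosphodiesterase gene Pde7b lower (-1.25, SE 0.41, adjusted p = 0.0424), and without 8 of the 10 libraries it did not (adjusted p up to 0.191). The 9 adenylyl cyclase genes had a median of -0.01, and Adcy4 (-1.68, SE 0.75) lay between -2.31 and -0.79 when each library was left out. Adcy4 was at 9.45 CPM in Ctrl replicate 1, which had the highest vascular marker sum (1423.2 CPM), and at 0.89 to 2.76 CPM in the other Ctrl libraries, and the part of vascular cells in its value was not tested.

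Kcnj3, a GIRK channel subunit gene, stood on the higher side. It was at 27.2, 26.8, 24.5, 24.8 and 22.5 CPM in Ctrl, in the same order of replicates, and at 27.7, 29.6, 34.4, 29.9 and 28.4 CPM in Cdk7_KO, so that the groups did not overlap, by a margin that was small against their spread. Kcnj3 had a log2 fold change of 0.31 (SE 0.09, edgeR adjusted p = 0.174, DESeq2 adjusted p = 0.0590). Kcnj9, another subunit gene, was at 0.67 (SE 0.31, edgeR adjusted p = 0.335). The receptor kinases and arrestins (7 genes, median 0.05), the RhoGEFs with an RGS-like domain (3 genes, 0.02) and the G protein chaperones and receptor-independent regulators (14 genes, 0.03) had 0 calls in edgeR or DESeq2. At an unadjusted p under 0.05 edgeR gave 2 of these 24 genes, Akap12 (-0.47, SE 0.19) and Rap1gap (-0.18, SE 0.08), both lower.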

How the data were processed

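The authors deposited 1 table of raw counts, whole numbers for each gene in 10 libraries. STAR, Salmon and the GRCm38 build are named, without roles, per the submitters' processing notes, and tool versions and strand setting were not given in the sources used here. The kit was directional, per the labels. All count columns matched a sample, and 0 were left over. Coordinates and exon lengths came from GENCODE M21 (55480 of 55573 gene IDs matched), and upstream windows from RefSeq (GRCm38.p6).

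Testing used edgeR 4.0.16 in R 4.3.3 (filterByExpr, minimum count 10, TMM, quasi-likelihood test, genotype alone) over 15578 genes, with Benjamini-Hochberg adjustment at 0.05. Standard errors come from the F statistic. DESeq2 1.42.0 and limma 3.58.1 (voom) were alternatives. CPM uses library totals. Cdk7 was compared as log2(CPM + 1). The edgeR test was tried on simulated counts. Counting error weighs most on scarce genes such as Gna15.

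The members and lists were chosen with earlier results of these data known. Named were Cdk7, Gng10, Rgs20, the 12 members with the smallest edgeR p, every member called by edgeR or DESeq2, the 3 of each class with the highest CPM per kilobase, and 2 genes per pathway list by p. Of the pathway genes so chosen, 6 are not described above and are given here with their log2 fold changes. Those lower were Pde8b (-0.70, SE 0.24), Adcy8 (-0.68, SE 0.39), Grk5 (-0.17, SE 0.13) and Arhgef1 (-0.17, SE 0.17). Those higher were Grk2 (0.10, SE 0.06) and Arhgef11 (0.08, SE 0.12). Gnao1, Gnai1, Gnai3, Gnaz, Rgs17, Rgs19, Rgs7bp, Rgs8, Lpar1, Dnajc25, Bscl2 and Atp6v1h were added after their values were seen. The DESeq2 fits without each library and with the number set, the edgeR fits of the number set without each library, the interaction and the count at an unadjusted p under 0.05 were also added then.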

Additional observations from a re-analysis of the deposited data

Results flagged for a closer look

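A sample far from the others of its group was looked for in 84 groups of 5 values, and chance alone flags about 1 in 20. In 4 groups 1 Ctrl library stood apart, by a gap above 0.71 of the group's range. Gng11 was at 12.2 CPM in the highest Ctrl library, replicate 1 (group median 1.77 CPM). Htr2a was at 3.11 CPM in the same library (median 2.31 CPM), and Adcy4 reached 9.45 CPM there too (median 2.66 CPM). Plcb3 was at 16.8 CPM in its lowest Ctrl library, replicate 6 (median 24.5 CPM). The interaction of genotype and number set passed adjustment for 0 of 15578 genes in edgeR (smallest adjusted p = 0.665), with 4 of the 41 members at an unadjusted p under 0.05 (background 7.34%).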

How the results depend on the processing

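edgeR called 0 genes of the whole table. DESeq2 called 578, the fit with the number set as a factor 732, the fit without a filter 1 and the fit with the replicate number as a block 5, and without single libraries there were 0 to 5. Members called rose from 0 to 3 with DESeq2 and to 3 with the number set, and stayed at 0 with the replicate block and without any single library. DESeq2's 3 calls became 7 with the number set and 1 to 5 without single libraries, and the 3 calls with the number set became 1 to 4. The 10 members at an unadjusted p under 0.05 became 6 in replicates 1 to 3 alone and 6 to 14 without single libraries. The same-numbered libraries did not all deviate together (r from -0.15 to 0.43 over 4 pairs), so the numbers were not taken as pairing.

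In replicates 1 to 3 alone the signs of Gnb2 (-0.0553), Gng3 (-0.14) and Rgs6 (-0.13) reversed, and in 4 to 6 alone that of Gnb5 (-0.0111). Of 230 values of the 21 named members under 11 settings, 226 kept their direction, and all 210 without a single library did. Class medians in replicates 1 to 3 alone were -0.0158 (Gα), -0.0145 (Gβ) and -0.0636 (Gγ). The Gγ median was -0.14 in replicates 4 to 6 alone, -0.0667 with the replicate block and -0.06 to 0.12 without single libraries, and the Gβ median was 0.0207 with library totals. The cause of these shifts was not tested. Library totals shifted the median over all genes by -0.05. Genes with few counts, such as Gng10 and Gna15, are limited by depth.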
